A study of Rattus norvegicus with 12 samples.

Results

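Fos, Fosb, Fosl1, Fosl2, Jun, Junb, Egr1, Egr2, Egr3 and Nr4a1 are immediate early genes, and their transcripts were followed across cultures of rat neural stem cells (NSCs) from spinal cord and brain. The genes were taken by name: every probe set of the array whose platform annotation gives a single symbol among these 10 was included. This gave 15 probe sets of the 31042 that are not controls. Of these, Jun had 3, Fos, Fosl2 and Egr2 had 2 each, and the other genes 1 each.

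Immediate early genes are transcribed within minutes of a stimulus, such as a growth factor, from factors that are already in the cell. ERK signalling acts on ternary complex factors (Elk proteins) bound with serum response factor (SRF) at CArG boxes, and CREB acts at cyclic AMP response elements (CREs). The products are themselves transcription factors. Fos and Jun family proteins pair through leucine zippers to form AP-1, Egr proteins bind GC-rich sites through zinc fingers, and Nr4a1 is an orphan nuclear receptor. Neural stem cells in culture are commonly kept dividing with EGF and FGF, whose receptors signal through ERK.

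The study measured 12 Affymetrix arrays in 4 groups of 3: differentiated spinal cord cultures (titled SNSCfenhua), proliferative spinal cord cultures (SNSC), differentiated brain cultures (BNSCfenhua) and proliferative brain cultures (BNSC). Fenhua is Chinese for differentiation, and the title of the series gives both states. All cells came from Sprague Dawley rats at postnatal days 3 to 5, without a named genotype or transgene. The medium, growth factors, time in culture and way of differentiation are not given in the sources used here, and nothing says that replicate arrays are separate animals or cultures. The p-values may thus rest on technical spread alone.

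Values are log2 MAS5 signals, the deposited unit, in which a step of 1 is a doubling, and their precision is limited by the 3 arrays of each group. Array medians were 6.87 to 7.22. A probe set was tested if it exceeded the 40th percentile of the same array (5.91 to 6.41) on 3 or more arrays, which 20834 did, and a group was called dim for a gene where its 3 arrays all lay under their percentiles. A fold against a dim group is given as a bound. Differences were tested with limma, adjusted by Benjamini-Hochberg over all probe sets tested, and a gene is said to rise, fall or be called only where the adjusted p was under 0.05. In bulk RNA, fewer cells of a type and less RNA per cell cannot be told apart.

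Cell type markers differed between the groups. The arrays' mean log2 signal of 5 neural stem cell markers was 10.97 to 11.08 in differentiated spinal cord, 11.65 to 11.81 in proliferative spinal cord, 12.67 to 12.73 in differentiated brain and 12.51 to 12.79 in proliferative brain cultures, with none of them dim. For 7 astrocyte markers it was 11.64 to 11.66, 10.96 to 11.64, 13.31 to 13.42 and 10.57 to 11.18 in that order of groups, and for 5 oligodendrocyte markers 11.26 to 11.32, 11.50 to 11.69, 10.87 to 11.15 and 6.82 to 8.01, with Mog and Mobp dim in proliferative brain cultures. For 6 neuron markers it was 6.47 to 7.04, 8.95 to 9.19, 8.32 to 8.61 and 8.87 to 9.80, with Rbfox3 dim in differentiated spinal cord. For 6 fibroblast markers it was 13.06 to 13.19, 10.64 to 11.66, 5.48 to 6.30 and 5.74 to 6.44, with Lum and Pdgfrb dim in both brain groups and Dcn in differentiated brain. For 6 microglia markers it was 7.11 to 7.35, 6.53 to 7.70, 6.03 to 6.13 and 4.99 to 5.20, with Itgam and Cx3cr1 dim in all 4 groups and 5 of 6 dim in proliferative brain. For 5 oligodendrocyte precursor markers it was 8.85 to 9.54, 10.85 to 10.96, 10.18 to 10.22 and 8.46 to 8.76, with Olig2 dim in differentiated spinal cord. Of 4 endothelial markers, Pecam1, Cldn5 and Tek were dim in all 4 groups, and the list lay at 3.17 to 5.17. The 3' minus 5' signal of Actb, a sign of RNA quality, was 0.99 to 1.01 in differentiated and 0.69 to 0.99 in proliferative spinal cord, 0.73 to 0.81 in differentiated and 0.77 to 0.84 in proliferative brain cultures. The signal of 5S ribosomal RNA, another quality probe set, was 8.09 to 8.75 in differentiated and 8.65 to 9.38 in proliferative spinal cord, and 7.84 to 8.19 in differentiated and 9.50 to 11.02 in proliferative brain cultures. The part of these shifts in the results below was not tested. Proliferative spinal cord replicate 1 was the highest of its group for Egr1 and Fosl1. It was the lowest for Fos, Fosl2, Jun, Junb, Egr2 and Nr4a1. For Fos and Fosl1, however, replicate 3 lay farther from the rest of the group, and for Nr4a1 replicate 2 did. The results that replicate 1 moved most are also given without it.

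The promoters of Egr1, Egr2, Fosl1 and Nr4a1 are shown as examples, chosen because the windows differ in the elements that SRF and CREB use. Fosl2 and Junb also had calls described below and a promoter window, and are not shown. Each is the window of 250 bases before to 50 after the gene's start, from RefSeq on GRCr8, and 7 of the 10 genes had an entry (not Fos, Jun and Egr3). Capitals mark every match on either strand to the CRE core TGACG, the EGR site GCGNGGGCG or the CArG box. The windows are Egr1 at chr18:26736828-26737127, plus strand, Egr2 at chr20:21054392-21054691, minus strand, Fosl1 at chr1:212183635-212183934, plus strand and Nr4a1 at chr7:134259888-134260187, plus strand.
Egr1: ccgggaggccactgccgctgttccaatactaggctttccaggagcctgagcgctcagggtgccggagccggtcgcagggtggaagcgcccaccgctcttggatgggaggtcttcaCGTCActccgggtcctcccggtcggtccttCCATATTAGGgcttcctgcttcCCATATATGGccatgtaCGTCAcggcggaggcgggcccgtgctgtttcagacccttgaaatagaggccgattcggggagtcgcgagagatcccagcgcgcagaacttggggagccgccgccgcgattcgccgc
Egr2: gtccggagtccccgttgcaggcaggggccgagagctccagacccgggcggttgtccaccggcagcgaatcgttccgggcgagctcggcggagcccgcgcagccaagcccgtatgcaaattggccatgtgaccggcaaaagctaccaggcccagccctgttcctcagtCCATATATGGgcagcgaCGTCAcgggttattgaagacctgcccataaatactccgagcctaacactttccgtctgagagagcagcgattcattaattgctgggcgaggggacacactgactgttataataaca
Fosl1: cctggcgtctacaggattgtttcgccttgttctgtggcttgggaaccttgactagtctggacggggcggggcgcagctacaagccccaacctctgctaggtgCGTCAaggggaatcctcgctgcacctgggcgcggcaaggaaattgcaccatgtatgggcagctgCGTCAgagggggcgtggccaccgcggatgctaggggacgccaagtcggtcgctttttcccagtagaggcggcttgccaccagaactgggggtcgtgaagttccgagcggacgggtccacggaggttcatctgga
Nr4a1: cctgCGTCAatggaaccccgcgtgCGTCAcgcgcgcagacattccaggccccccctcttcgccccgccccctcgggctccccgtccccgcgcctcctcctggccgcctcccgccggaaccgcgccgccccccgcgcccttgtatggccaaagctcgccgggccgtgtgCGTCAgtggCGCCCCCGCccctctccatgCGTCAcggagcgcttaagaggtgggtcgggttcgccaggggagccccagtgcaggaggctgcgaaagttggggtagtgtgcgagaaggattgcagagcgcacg

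A CArG box was found in 2 of the 7 windows, Egr1, beginning at -105 and at -83 from the start, and Egr2, at -83. It was present in 1.64% of all 27457 promoter windows. The CRE core was in 5 of 7 windows, against 21.96% of all windows, with matches at -66 in both Egr1 and Egr2, at -148 and -84 in Fosl1, and at 4 places in Nr4a1. The EGR site was in Fosl2 and Nr4a1 (5.29% of all windows). None of the 7 held the AP-1 site TGACTCA (4.53% of all), the full CRE TGACGTCA (1.91%), which contains the CRE core, or the Nr4a site AAAGGTCA (1.29%). These counts describe letters in short windows and say nothing of binding.

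**Figure D1:**
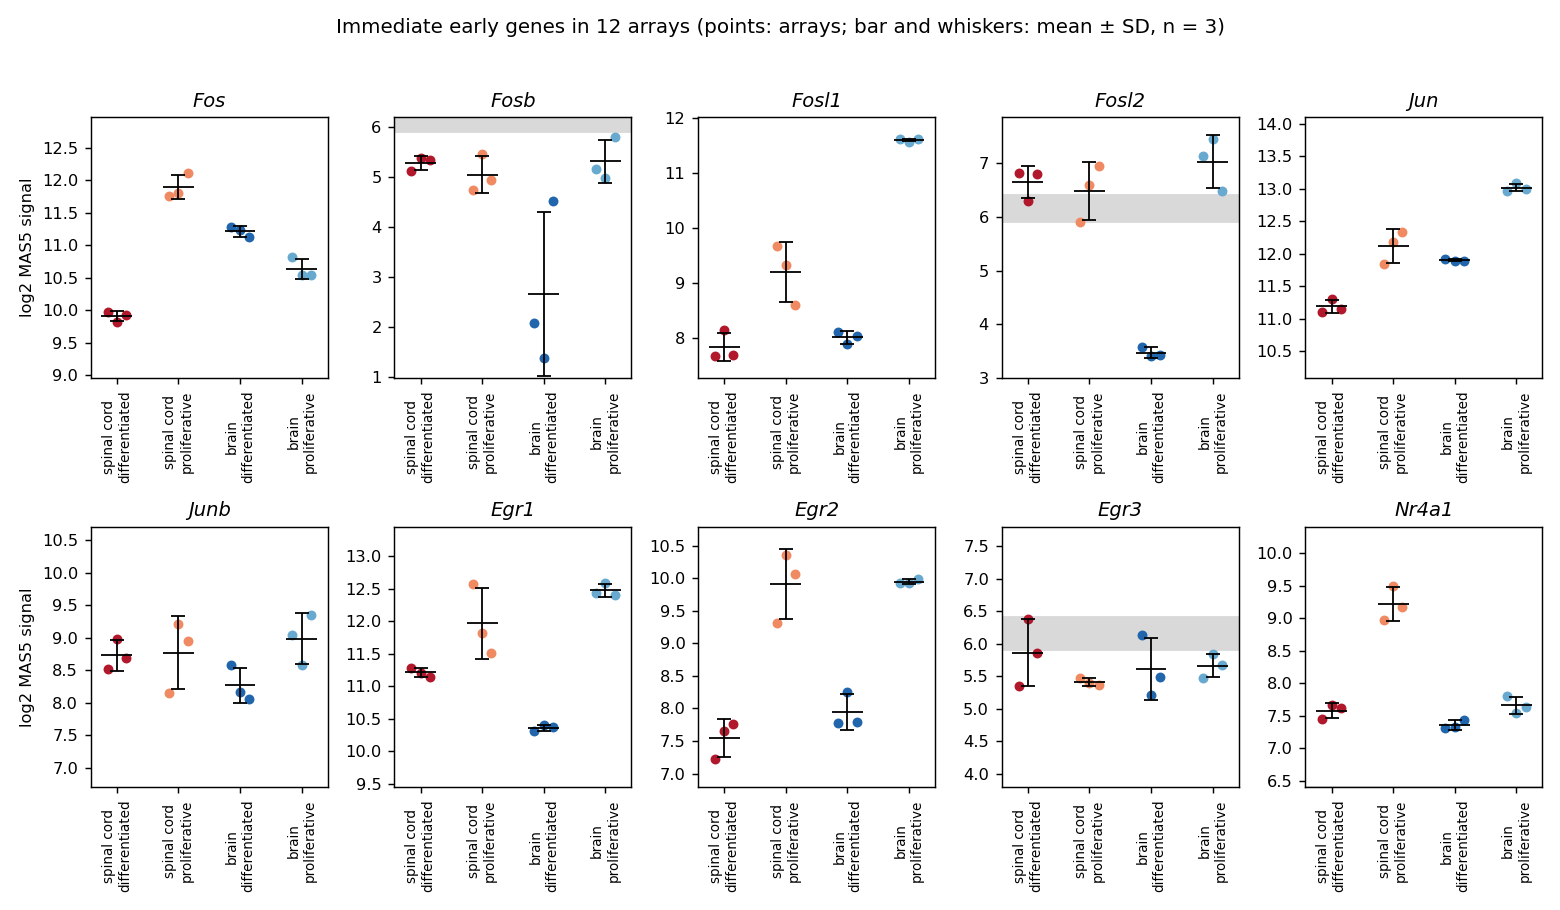
Log2 MAS5 signal (vertical axes, scaled for each gene) of the 10 genes by their main probe set in differentiated and proliferative cultures of spinal cord and brain; points are arrays, bars with whiskers mean ± SD of 3 arrays, and the grey band is the range of the arrays' 40th percentiles, 5.91 to 6.41. Fos has the highest arrays in proliferative spinal cord and the lowest in differentiated spinal cord, Fosl1 stands highest in proliferative brain, and Fosb and Egr3 lie under the percentiles of their arrays.

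Differentiation was first compared within each tissue, which is the main question that the series title names. With differentiation, most of the measured immediate early genes were lower in both tissues, but not the same members by the same amounts. In spinal cord 6 of 8 tested genes fell and none rose, against 22.0% of all tested probe sets called lower and 18.3% called higher. In brain 6 fell and Fos rose, against 23.1% called lower and 23.7% called higher. Jun, Egr2, Egr1 and Fosl1 fell in both tissues, Fos and Nr4a1 in spinal cord, and Fosl2 and Junb in brain. The median log2 change of the 8 tested genes was -1.14 in spinal cord and -1.56 in brain, beside -0.05 and 0.00 over all probe sets tested. Fosl2 enters the brain median at its deposited -3.56, against a dim group where only a bound holds. The medians of the tissues therefore cannot be ranked. In the same comparisons 5 of 6 fibroblast markers rose and 0 fell in spinal cord, and 1 rose and 2 fell in brain. Of 6 neuron markers, 0 rose and 5 fell in spinal cord, and 1 rose and 3 fell in brain. Of 7 astrocyte markers, 4 rose and 3 fell in spinal cord, and 6 rose and 0 fell in brain. Of 5 oligodendrocyte markers, 0 rose and 1 fell in spinal cord, and 5 rose and 0 fell in brain. Of 5 neural stem cell markers, 1 rose and 3 fell in spinal cord, and 3 rose and 1 fell in brain. Of 4 tested microglia markers, 0 rose and 1 fell in spinal cord, and 2 rose and 1 fell in brain. Of 5 oligodendrocyte precursor markers, 4 fell and 1 rose in spinal cord, and 4 rose and 0 fell in brain. The part of these markers in the members' changes was not tested. Fosb and Egr3 did not pass the filter and have no test.

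Among the Fos family, whose proteins need a Jun partner, Fos itself is the best known marker of recent stimulation. Fos was at 9.97, 9.82 and 9.93 on the differentiated spinal cord arrays, against 11.76, 11.81 and 12.11 on the proliferative ones. In brain it was at 11.28, 11.24 and 11.12 on the differentiated arrays, against 10.82, 10.55 and 10.55 on the proliferative ones. Neither pair of groups overlaps, and the directions are opposite. Fos fell in spinal cord by 1.99 on the log2 scale (95% confidence interval -2.23 to -1.75, adjusted p = 2.83e-08 by limma), which is 3.96-fold. In brain it rose by 0.58 (0.34 to 0.82, adjusted p = 0.000834), or 1.49-fold. Both calls held under every alternative tried for this probe set. Its other probe set was dim in all 4 groups, at 3.86 to 6.40, and was not tested.

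Fosl1 encodes FRA-1, a Fos family member without the strong activation domain of Fos that accumulates under sustained ERK signalling. Its signals were 7.67, 8.13 and 7.69 on differentiated and 9.66, 9.32 and 8.60 on proliferative spinal cord arrays. On brain arrays they were 8.10, 7.88 and 8.03 in the differentiated and 11.61, 11.57 and 11.61 in the proliferative state. The differentiated groups of both tissues overlap, whereas the proliferative brain arrays stand well above all others. Fosl1 fell by 1.36 in spinal cord (-1.83 to -0.90, adjusted p = 0.000211 by limma). In brain it fell by 3.59 (-4.06 to -3.13, adjusted p = 3.03e-08).

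Fosl2 encodes FRA-2, a related protein. Its main probe set was at 6.83, 6.30 and 6.81 on differentiated and 5.90, 6.59 and 6.96 on proliferative spinal cord arrays, with 1 array of each group under its percentile. In brain it was at 3.58, 3.40 and 3.43 on differentiated arrays, where it was dim, and at 7.14, 7.46 and 6.49 on proliferative ones. In brain Fosl2 fell by 3.56 on the deposited values (adjusted p = 6.34e-06 by limma), which is given as a fall of at least 1.66-fold. The bound itself was not tested. In spinal cord the change was 0.16 (-0.66 to 0.99, adjusted p = 0.772). The other probe set of Fosl2 lay at 1.35 to 6.43 and did not pass the filter. Fosb, which is induced together with Fos in neurons, was at 1.39 to 5.80 and dim in all 4 groups, so no fold is given.

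Jun is the central partner of Fos proteins in AP-1 and can also pair with itself. Its 3 probe sets gave like values: by the main probe set the signals were 11.11, 11.31 and 11.15 on differentiated and 11.84, 12.18 and 12.34 on proliferative spinal cord arrays. On brain arrays they were 11.92, 11.89 and 11.89 in differentiated and 12.97, 13.08 and 13.00 in proliferative cultures. The groups of a tissue do not overlap, by any of the 3 probe sets. The log2 changes of the 3 probe sets were -1.06, -0.99 and -0.93 in spinal cord and -1.09, -1.15 and -1.11 in brain. The largest of their 6 adjusted p-values by limma was 0.000154. The 3 probe sets report the same gene on the same arrays and are not independent measurements.

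Junb, a Jun relative that activates less strongly and can hold back Jun, varied more between arrays of a group than Jun did. It was at 8.52, 8.98 and 8.69 on differentiated and 8.15, 9.22 and 8.95 on proliferative spinal cord arrays, which overlap. In brain it was at 8.58, 8.17 and 8.06 in differentiated and 9.04, 8.58 and 9.35 in proliferative cultures, ranges that touch at 8.58. Its fall in brain was 0.72 (-1.29 to -0.16, adjusted p = 0.0371 by limma), and the call was lost when any of 4 of the 6 brain arrays was left out, with adjusted p up to 0.143 without proliferative brain replicate 3. It was also lost with the replicate number as a block (adjusted p = 0.0519) and without a trend in limma (adjusted p = 0.064). In spinal cord the change of Junb was -0.04 (-0.61 to 0.53), with a sign that turned to 0.04 after median centring.

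Of the Egr genes, Egr1 is the zinc finger factor that reports ERK activity in many cell types. Egr1 signals were 11.28, 11.21 and 11.15 on differentiated and 12.57, 11.82 and 11.51 on proliferative spinal cord arrays. In brain they were 10.31, 10.40 and 10.37 on differentiated and 12.43, 12.59 and 12.40 on proliferative arrays. Proliferative spinal cord replicate 1 reached the level of the proliferative brain arrays while the other replicates of its group lay nearer to the differentiated ones. Egr1 fell by 2.11 in brain (-2.52 to -1.71, adjusted p = 1.16e-06 by limma). In spinal cord it fell by 0.75 (-1.16 to -0.35, adjusted p = 0.00587). The spinal cord change was -0.45 without proliferative replicate 1 and -0.98 without replicate 3, and was called in each case.

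Egr2, known in the nervous system for its role in hindbrain segments and in myelination by Schwann cells, fell in both tissues. It was at 7.22, 7.66 and 7.76 on differentiated and 9.31, 10.36 and 10.06 on proliferative spinal cord arrays. On brain arrays it was at 7.78, 8.26 and 7.79 in differentiated and 9.93, 9.93 and 9.99 in proliferative cultures. Every proliferative array of both tissues lay above every differentiated array. Egr2 fell 5.12-fold in spinal cord (log2 change -2.36, -2.86 to -1.85, adjusted p = 3.74e-06 by limma) and 4.01-fold in brain (log2 interval -2.51 to -1.50, adjusted p = 1.25e-05). Another probe set of Egr2, at 2.54 to 7.06, was dim in both differentiated groups and was not called in either tissue (adjusted p = 0.919 and 0.0648). Egr3 was dim in all 4 groups, with signals of 5.21 to 6.38.

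Nr4a1, also called Nur77, is induced by growth factors and by calcium signals. Nr4a1 was at 7.46, 7.67 and 7.62 on differentiated and 8.98, 9.50 and 9.17 on proliferative spinal cord arrays. In brain it was at 7.31, 7.33 and 7.44 on differentiated and 7.80, 7.55 and 7.64 on proliferative arrays. The proliferative spinal cord group stood apart from the other 3, which lay within 7.31 to 7.80. Nr4a1 fell by 1.63 in spinal cord (-1.98 to -1.28, adjusted p = 3.89e-06 by limma). In brain the change was -0.30 (-0.65 to 0.05, adjusted p = 0.148), and it was called after median centring (-0.45, adjusted p = 0.0374) and after quantile normalization (-0.43, adjusted p = 0.0390). Those scalings moved the median of all tested probe sets in brain to -0.15 and -0.06.

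**Figure D2:**
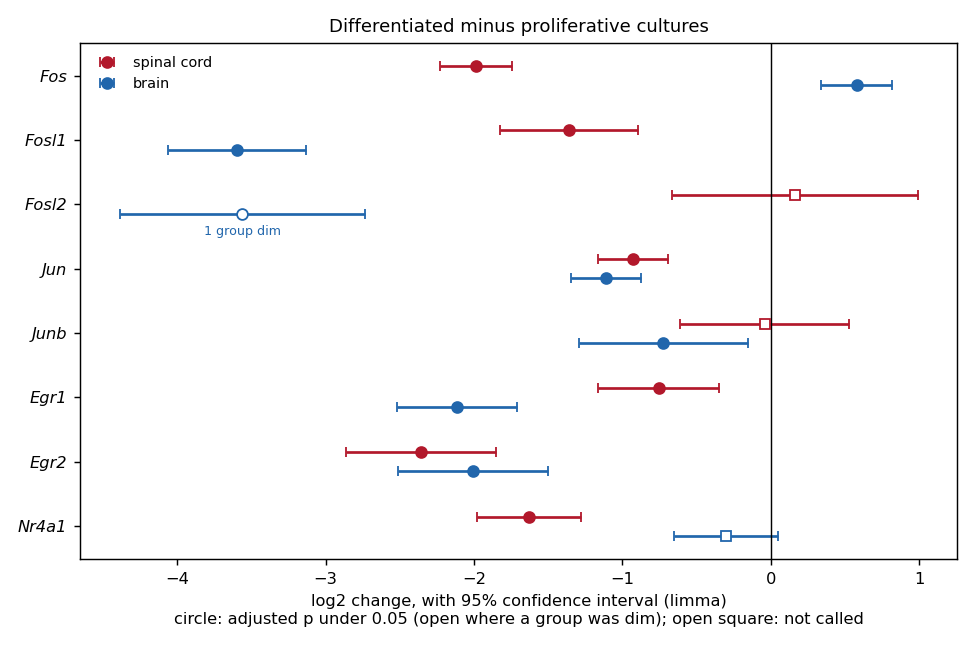
Log2 change of the 8 tested genes (horizontal axis, with 95% confidence interval from limma), differentiated minus proliferative cultures, in spinal cord (red) and brain (blue). Fos lies at -1.99 in spinal cord and 0.58 in brain, Jun, Junb and Egr2 have overlapping intervals, and the open circle of Fosl2 marks a value against a dim group.

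Whether the responses differed between tissues was tested as the difference of the log2 changes, spinal cord minus brain. Of the 8 tested genes 3 were called higher and 2 lower, against 18.8% and 21.7% of all tested probe sets. Fos had a difference of -2.56 (-2.91 to -2.22, adjusted p = 6.13e-08 by limma) and Nr4a1 of -1.33 (-1.82 to -0.84, adjusted p = 0.000443), so both responded more negatively in spinal cord. Fosl1 had 2.23 (1.58 to 2.89, adjusted p = 6.47e-05) and Egr1 1.36 (0.78 to 1.93, adjusted p = 0.00114), with the larger fall in brain. Fosl2 differed by 3.72 on the deposited values (adjusted p = 0.000111). With differentiated brain cultures at the floor it differed by at least 0.90, a bound that was not tested. The difference was 0.18 for Jun (-0.15 to 0.52), -0.35 for Egr2 (-1.07 to 0.36) and 0.68 for Junb (-0.12 to 1.49), and none of these was called. Without proliferative spinal cord replicate 1 these differences were 0.04 for Jun, -0.65 for Egr2 (adjusted p = 0.0515 by limma) and 0.37 for Junb.

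Fos and Fosl1 were also compared within arrays. The log2 ratio of Fos to Fosl1 signal was higher in differentiated than in proliferative brain cultures by 4.17 and lower in differentiated than in proliferative spinal cord cultures by 0.63 (a change of -0.63). In an exact two-sided permutation test the first gave p = 0.1, the smallest that 3 against 3 arrays allow, and the second p = 0.3. The ratio between different probe sets has no meaning as a level, and only its change is given.

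**Figure D3:**
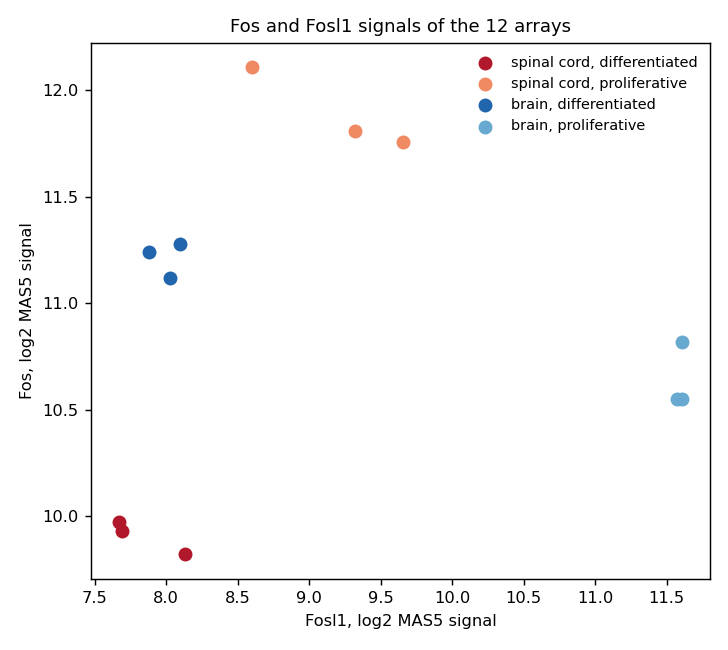
Fos against Fosl1, both as log2 MAS5 signal, with 1 point for each of the 12 arrays, coloured by group. Differentiated spinal cord arrays lie low for both genes, proliferative spinal cord arrays highest for Fos, differentiated brain arrays low for Fosl1 with Fos at 11.12 to 11.28, and proliferative brain arrays near 11.6 for Fosl1 with Fos at 10.55 to 10.82.

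The tissues were then compared within each state. These comparisons share their arrays with the ones above. In proliferative cultures Nr4a1 and Fos were higher in spinal cord than in brain, while Fosl1, Jun and Egr1 were lower. These are 2 called higher and 3 called lower of 8 tested genes, against 19.4% and 18.5% of all tested probe sets. The differences were 1.55 for Nr4a1 (1.20 to 1.90, adjusted p = 6.74e-06 by limma), 1.26 for Fos (1.01 to 1.50, adjusted p = 1.52e-06), -2.40 for Fosl1 (-2.87 to -1.94, adjusted p = 1.60e-06) and -0.89 for Jun (-1.13 to -0.66, adjusted p = 2.89e-05). For Egr1 the difference was -0.51 (adjusted p = 0.0486), between overlapping groups. That call was lost in 11 of 12 fits that left out an array, with -0.28 without proliferative spinal cord replicate 3 (adjusted p = 0.225), and held without proliferative spinal cord replicate 1, at -0.81. It was also lost after quantile normalization (-0.43), with no filter, with no trend and with only the groups compared. Egr2 (-0.04, -0.55 to 0.46), Junb (-0.22, -0.79 to 0.35) and Fosl2 (-0.55, -1.38 to 0.28) were not called. Without proliferative spinal cord replicate 1 they were at 0.26 for Egr2, 0.09 for Junb and -0.26 for Fosl2, again not called. The median of all tested probe sets here was -0.22 after median centring, against -0.02 as deposited, which left the signs of the 5 called genes as they were.

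In differentiated cultures Egr1 and Fosl2 were higher in spinal cord than in brain and Fos and Jun lower, 2 genes each way of 8 tested, against 18.5% of all tested probe sets called higher and 22.9% called lower. Fos had a difference of -1.31 (-1.55 to -1.07, adjusted p = 6.04e-07 by limma), opposite in sign to that of the proliferative cultures. Egr1 was higher by 0.85 (0.45 to 1.26, adjusted p = 0.00244), Jun lower at -0.71 (-0.95 to -0.48, adjusted p = 0.000142), and Fosl2 at least 1.27-fold higher. Fosl1, the member with the widest tissue difference in proliferative cultures, had -0.17 here (-0.64 to 0.29, adjusted p = 0.564). Nr4a1 (0.22), Egr2 (-0.39) and Junb (0.46) were not called. Jun was thus lower in spinal cord than in brain cultures in both states.

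**Figure D4:**
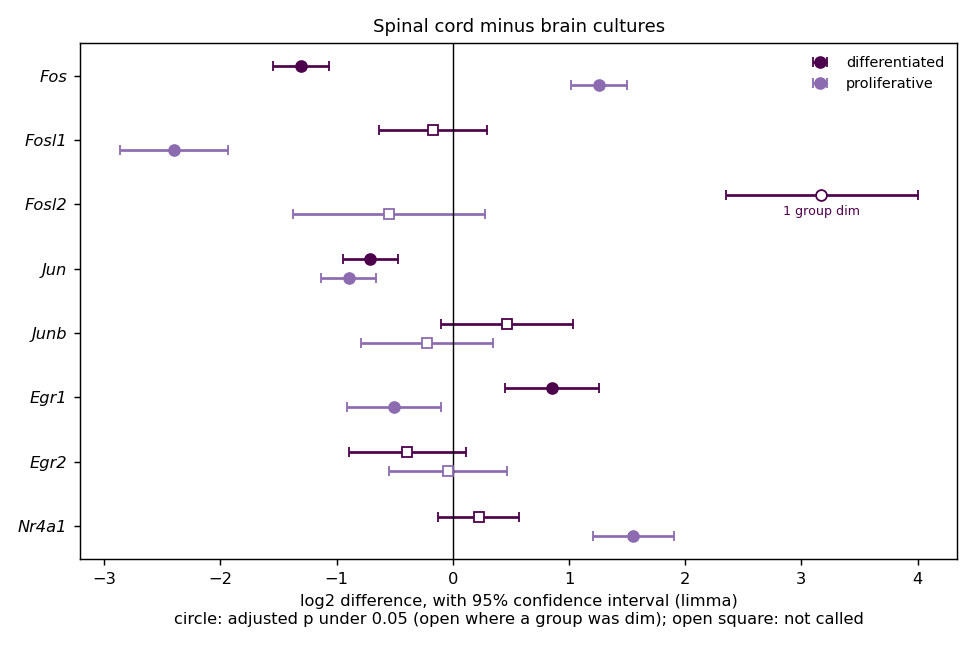
Log2 difference of the 8 tested genes (horizontal axis, with 95% confidence interval from limma), spinal cord minus brain, in differentiated (dark) and proliferative (light) cultures. Fos, Egr1, Fosl2 and Junb change sign between the states, with neither Junb value and not the proliferative Fosl2 value called and the proliferative Egr1 call lost in 11 of 12 fits that left out an array. Jun lies below 0 in both, and Fosl1 lies at -2.40 in proliferative and -0.17 in differentiated cultures.

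Other immediate early genes were taken as a list. Of 27 tested, 5 rose and 8 fell in spinal cord differentiation, with a median change of -0.18, and 3 rose and 15 fell in brain, with a median of -0.78, beside -0.04 and -0.06 over 11218 tested genes. Over all tested probe sets 18.3% were called higher and 22.0% lower in spinal cord, so the spinal cord counts lie near the background, and 23.7% were called higher and 23.1% lower in brain. Without proliferative spinal cord replicate 1, which was tried for the lists after the data were seen, 4 rose and 9 fell in spinal cord. Ier2, a nuclear protein induced with Fos, fell alike in both: it was 8.71 ± 0.28 in differentiated and 10.01 ± 0.16 in proliferative spinal cord (SD, n = 3), and 8.91 ± 0.16 in differentiated and 10.12 ± 0.07 in proliferative brain cultures. Klf4, a zinc finger factor of stem and epithelial cells, was 7.03 ± 0.21 in differentiated and 10.36 ± 0.34 in proliferative brain (change -3.33, adjusted p = 2.64e-08 by limma) and had a change of 0.34 in spinal cord (adjusted p = 0.194). Ptgs2, the inducible cyclooxygenase, fell by 1.86 in spinal cord and at least 6.79-fold in brain. Sgk1, a kinase induced by serum and glucocorticoids, was called in opposite directions, at -1.38 in spinal cord (11.60 ± 0.06 in differentiated, 12.97 ± 0.07 in proliferative cultures) and 1.74 in brain (11.95 ± 0.07 in differentiated, 10.21 ± 0.20 in proliferative cultures). Gadd45g, a stress and differentiation protein, went the same ways, at -1.03 and 1.26. Ccn2, a matricellular target of SRF and YAP, rose by 1.79 in spinal cord (adjusted p = 0.0126), where its proliferative arrays had an SD of 1.45, and had 0.99 without proliferative replicate 1 (adjusted p = 0.0156).

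**Figure D5:**
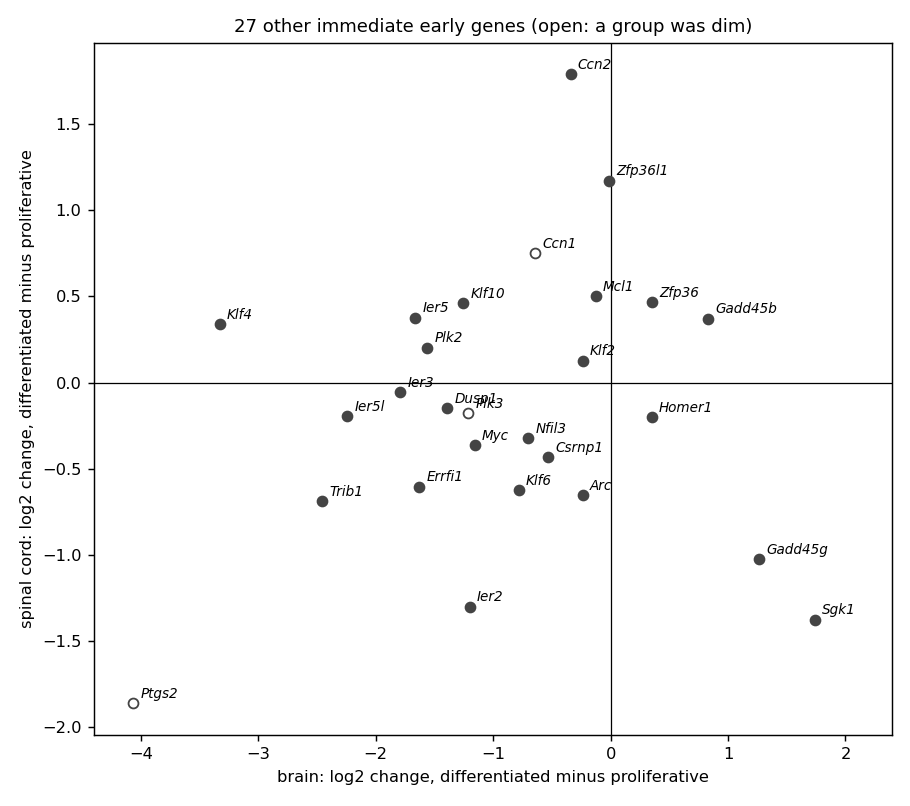
Log2 change, differentiated minus proliferative, of 27 other immediate early genes in brain (horizontal axis) and spinal cord (vertical axis); open points had a dim group. Ier2, Trib1, Ptgs2, Klf6, Errfi1 and Myc were called lower in both tissues. Sgk1 and Gadd45g were called higher in brain and lower in spinal cord, and Ier5 and Klf10 the other way round. Without proliferative spinal cord replicate 1, Trib1 (adjusted p = 0.0923 by limma), Myc (adjusted p = 0.127) and Ier5 (adjusted p = 0.0716) were not called in spinal cord. Klf4 lies at -3.33 in brain and 0.34 in spinal cord.

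Among partners of AP-1 and other bZIP factors, 8 of 10 measured genes were tested, and 2 fell in each tissue with no rise, a share near the 22.0% and 23.1% of all tested probe sets called lower. Jund, the Jun protein that is made constitutively, was not called in spinal cord (-0.07, adjusted p = 0.585) or in brain (-0.18, adjusted p = 0.111). Atf3, a stress-induced repressor, fell by 1.77 in spinal cord (adjusted p = 0.00743 by limma), with -2.56 without proliferative replicate 1, and Maff, a small Maf protein, fell at least 3.45-fold in brain. Mafg was called in both, at -0.56 in spinal cord and -0.43 in brain. Of the relatives and co-repressors of Egr and Nr4a factors, 4 were tested. In spinal cord 1 rose and 1 fell, and in brain 0 rose and 2 fell. Over all tested probe sets 18.3% were called higher and 22.0% lower in spinal cord, and 23.7% and 23.1% in brain. Nab1, another co-repressor of Egr proteins, rose by 0.43 in spinal cord (adjusted p = 0.0182 by limma) and was not called in brain. Nab2, a co-repressor that Egr proteins induce and that limits them, was 7.28 ± 0.37 in differentiated and 9.67 ± 0.25 in proliferative brain (change -2.39, adjusted p = 5.28e-07) and had -0.12 in spinal cord (adjusted p = 0.673). Nr4a3 fell at least 2.22-fold in brain, and Nr4a2 fell by 0.51 in spinal cord.

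Of 9 upstream factors tested, 3 rose and 1 fell in spinal cord, and 0 rose and 6 fell in brain. Their median change was 0.16 in spinal cord and -0.45 in brain. All tested probe sets had 18.3% called higher and 22.0% lower in spinal cord, and 23.7% higher and 23.1% lower in brain. Srf had changes of 0.12 in spinal cord (adjusted p = 0.508 by limma) and -0.45 in brain (adjusted p = 0.0114). Elk3, a ternary complex factor that can repress, fell by 0.98 in brain, and Mrtfa, the actin-regulated SRF partner, was called at 0.59 in spinal cord and -0.52 in brain. Mapk8, which encodes a Jun kinase, was called at -0.49 in spinal cord and -0.66 in brain.

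Of 14 tested genes known as AP-1 targets, 9 fell in spinal cord and 5 were not called, and 11 fell in brain and 3 were not called, with 0 rising in either tissue. Over all tested probe sets 22.0% were called lower in spinal cord and 23.1% in brain. Mmp12, a macrophage elastase, had 0.59 in spinal cord and was not called, with an SD of 2.25 on the proliferative arrays. Without proliferative spinal cord replicate 1 Mmp12 turned to -0.70, again not called (adjusted p = 0.493 by limma). In that fit 10 of the 14 fell in spinal cord. Among them was Il6 at -2.32, which had -1.27 and was not called with all arrays. In brain 6 of the 11 had a dim differentiated group, so they passed the filter through other groups. The list's median was -1.53 in spinal cord and -2.80 in brain, or -1.08 in brain with dim groups at the floor. Hbegf, a membrane-bound ligand of the EGF receptor, was 6.81 ± 0.43 in differentiated and 9.28 ± 1.12 in proliferative spinal cord, and 8.43 ± 0.09 in differentiated and 12.88 ± 0.23 in proliferative brain cultures. Areg, another ligand of that receptor, fell at least 33.0-fold in spinal cord and at least 16.3-fold in brain. The G1 cyclin gene Ccnd1 was called at -1.44 in spinal cord and -1.27 in brain. Cd44, the hyaluronan receptor, was called at -1.15 in spinal cord and -1.58 in brain. Mmp13, a collagenase, fell by 1.67 in spinal cord and at least 4.41-fold in brain. Spp1, osteopontin, fell by 1.62 in spinal cord and had a change of 0.43 in brain (adjusted p = 0.316).

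The genes whose 12 values lay closest to those of 4 members were found by the root mean square difference after each gene was centred on its own mean, over 11217 other tested genes. For Fosl1 they were Igfbp3, an IGF binding protein (0.33 log2 units, where Fosl1 itself varied by 1.52), Hmga1, a chromatin protein of proliferating cells (0.43), and Nfatc2 (0.45). For Egr1 they were Mboat1 (0.19, where Egr1 varied by 0.83), Mthfd2, a mitochondrial folate enzyme (0.21), and Sh2b3, an adaptor that limits kinase signalling (0.23). Fos had Atp9a (0.20, where Fos varied by 0.74), Atat1, the tubulin acetyltransferase (0.20), and Zdhhc2, a palmitoyltransferase (0.21). Nr4a1 had Tigd2 (0.29, where Nr4a1 varied by 0.75), Dgkz, a diacylglycerol kinase (0.29), and Sec11c (0.31).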

How the data were processed

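The deposited values are log2 signals of MAS5, which scales each array on its own; MAS5 and affy are named, without versions, in the submitters' processing notes. After conversion to the linear scale every array had a mean of 500.0 with the upper and lower 2% left out. Per the labels' protocols, total RNA from TRIZOL was column-purified, treated with DNase and labelled with a 3' IVT kit. Of 31099 probe sets 57 controls were left out. The platform annotation gave a single symbol to 20826, several to 436 and none to 9780, and 20758 of the first matched a current rat gene by Entrez ID. Each gene was represented by its brightest probe set on average (14217 genes, 11218 tested). No genome was used for the array values, and the promoter windows came from RefSeq on GRCr8.

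A mean per group was fitted to the 12 arrays with limma 3.58.1 in R 4.3.3 (lmFit, eBayes with a trend, 8 residual degrees of freedom); figures used Python 3.11.15. The fit was tested on simulated data. All 15 probe sets of the members are named, and other genes come from 5 lists, with values for called genes or for those with high signal, and 3 nearest genes for each of Fos, Fosl1, Egr1 and Nr4a1. Alternatives were median centring, quantile normalization, no filter or a stricter filter (60th percentile), a pseudocount of 64, no trend, the replicate number as a block, only the groups compared, and each array left out. Added after the data were seen was a fit of the 5 lists without proliferative spinal cord replicate 1. The members, lists and tests were chosen with earlier results of these data known, so list counts are descriptions.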

Additional observations from a re-analysis of the deposited data

Results flagged for a closer look

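For 5 of 8 tested members the response to differentiation differed between the tissues by limma's test of the difference, spinal cord minus brain. Of these 3 were called higher and 2 lower, where 18.8% of all tested probe sets were called higher and 21.7% lower. Fos had -2.56, falling in spinal cord and rising in brain, each on 3 of 3 arrays against the other state. Nr4a1 had -1.33, with proliferative spinal cord arrays above all others. Fosl1 had 2.23, and Egr1 had 1.36. Fosl2 had 3.72 on the deposited values, and 0.90 with differentiated brain cultures, where it was dim, at the floor. No cause of these differences was tested.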

How the results depend on the processing

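Of 40 pairs of a tested member and a comparison, 32 kept their sign and their side of the threshold under every alternative run. Among all 787 repeated values 21 lost a call, 3 gained a call and 7 turned in sign. The turned signs were all of changes that were not called: in spinal cord differentiation Junb had 0.0385 after median centring and -0.35 to 0.18 with an array left out (0.05 and 0.06 without proliferative replicate 3 and differentiated replicate 1). Fosl2 had -0.13 to 0.40 there. Between proliferative tissues Egr2 had -0.27 to 0.26 and Junb -0.44 to 0.0932, the signs turning without proliferative spinal cord replicate 1. With the lowest-mean probe set of each gene, which was dim for Fos, the count of members called was 0 higher in brain differentiation and 1 higher between proliferative tissues. It was 1 higher and 1 lower between differentiated tissues, and 1 lower for the difference of responses. The lowest-mean probe sets of Fos and Fosl2 did not pass the filter and could not be called, which sets these lower counts. With the lowest-mean probe sets 4 and not 6 members fell in each tissue with differentiation. There Egr2 was lost as well, by a probe set that was tested and not called (adjusted p = 0.919 in spinal cord and 0.0648 in brain by limma). The stricter filter left out Fosl2 and gave 1 higher between differentiated tissues. With a pseudocount of 64 Fosl2 had -1.39 in brain differentiation, 1.13 between differentiated tissues and 1.47 for the difference of responses. Median centring gave 6214 probe sets called lower between proliferative tissues, against 3844, and made 38.2% of calls higher in brain differentiation (50.6% as deposited), 31.7% between proliferative tissues (51.2%) and 61.3% for the difference of responses (46.4%), for which it moved the median of all to 0.19. Deviations of same-numbered arrays correlated at -0.08 to 0.05, so the numbers were not taken as pairs; with the replicate number as a block 4647 and not 4821 probe sets were lower in brain differentiation, 5 and not 6 members fell there, and Junb lost its call (adjusted p = 0.0519), the only member call it changed. The 3 arrays of a group and signals near the 40th percentiles limit Fosl2, Fosb and Egr3.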

Other observations

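Between differentiated cultures, 14 of 27 other immediate early genes were called higher and 4 lower in spinal cord than in brain, with a median difference of 0.64, where 18.5% of all tested probe sets were called higher and 22.9% lower. Of 14 tested AP-1 targets 9 were higher and 3 lower, 7 of the 9 with a dim brain group. Between proliferative cultures 8 other immediate early genes were higher and 8 lower, and 6 AP-1 targets higher and 3 lower, where 19.4% of all tested probe sets were called higher and 18.5% lower. Without proliferative spinal cord replicate 1 these counts were 9 and 9, and 8 and 3.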
